A study of Mus musculus with 24 samples.

Results

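The response of invariant natural killer T (iNKT) cells to alpha-galactosylceramide (aGC) was described between the 2 groups of mice in the WT transplant arm whose libraries held little Cd8a RNA. The members are 6 of the 24 libraries of the series. They are 3 libraries of male mice given aGC (aGC M) and 3 libraries of female mice given PBS (PBS F), all from the arm that carried feces of wild-type donors (WT FT). They were chosen by a mean Cd8a level below 20 CPM (counts scaled to library size) in a WT FT group, so the members were picked by a measured value. The other WT FT groups, aGC F and PBS M, were above that level. Because the chosen groups differ in sex as well as in treatment, treatment and sex cannot be told apart within these 6 libraries, and genes on chromosomes X and Y were left out of all tests.

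All mice were C57BL/6J offspring of dams that had received a fecal transplant. The donors were wild-type (WT FT) or lacked CD1d (KO FT), and the labels give no allele for the offspring beyond the strain name. Each mouse received 2 µg aGC in 200 µL PBS, or the same volume of PBS, by oral gavage, and iNKT cells were sorted from the mesenteric lymph nodes 24 h later. The sort gate, the number of mice behind a library and the ages of the mice were not given in the sources used here, and donor, dam, litter and cage cannot be told apart from the group. Nothing in the labels ties each library to an animal of its own, so p-values measure only the spread between libraries, which may be technical.

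iNKT cells carry a semi-invariant receptor, built in mice from the Trav11 and Traj18 segments paired with a few beta chains, that binds glycolipids held by CD1d. aGC is a strong glycolipid agonist of that receptor. The cells leave the thymus as subsets that make interferon gamma (iNKT1, with the factor T-bet), interleukin 4 (iNKT2, with PLZF at a high level) or interleukin 17 (iNKT17), and they release cytokines within hours of contact with antigen.

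The 6 libraries held 14369869 to 37016768 estimated counts, against 9764931 to 37016768 in all 24. A count of 3, the limit that a count of 0 allows, was worth 0.0797 to 0.223 CPM in a library, and this limit covers counting error only. Over the 3 libraries of a group together it was 0.0715 CPM in aGC M and 0.0429 CPM in PBS F, and folds against a group at 0 were computed from the counts summed over the libraries of each group. Between replicates of a group the spread exceeded counting error, with chi-square over its degrees of freedom at 4.13 to 7.42.

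Cd8a, which encodes a chain of the CD8 coreceptor of cytotoxic T cells, set the choice. It was at 5.58, 6.21 and 6.96 CPM in the aGC M libraries and at 5.45, 6.61 and 6.75 CPM in the PBS F libraries, with means of 6.25 ± 0.690 CPM in aGC M and 6.27 ± 0.715 CPM in PBS F (SD, n = 3 each). The groups just outside the threshold had means of 245 CPM in aGC F and 287 CPM in PBS M. Cd8b1, the partner chain, was at 11.8, 12.3 and 13 CPM in aGC M and 10.3, 9.0 and 10.1 CPM in PBS F, against 390 CPM in aGC F and 573 CPM in PBS M. No p-value of Cd8a or Cd8b1 is given, since the Cd8a level chose the groups and Cd8b1 was low in the same groups. Cd8b1 was higher in each aGC M library than in any PBS F library (log2 change 0.33 ± 0.06). A fit to the summed counts of all 8 groups, with additive terms for treatment and sex, gave a log2 change of -0.68 for Cd8b1. That value draws on the Cd8-high groups too and is not the change between the summed aGC M and PBS F counts alone. Cd4, the coreceptor of helper T cells that many mouse iNKT cells carry, was at 90.5, 115 and 96.6 CPM in the aGC M libraries, against 114, 122 and 116 CPM in the PBS F libraries, and these ranges overlapped.

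The canonical alpha chain made up most of the receptor RNA in both groups. Trav11 held 80.8% ± 0.150 of the counts over 128 Trav segments in aGC M and 84.8% ± 0.211 in PBS F (SD, n = 3 each). The share was 54.6% in aGC F and 60.2% in PBS M, the Cd8-high groups. The aGC M libraries, at 80.7 to 81.0%, all lay below the PBS F libraries, at 84.6 to 84.9% (exact permutation test, two-sided p = 0.1, the smallest that 3 against 3 allows). The Trbv segments used by iNKT cells held 82.3% of the counts over 35 Trbv segments in aGC M and 81.8% in PBS F, against 67.9% in aGC F and 66.1% in PBS M. The 2 Cd8-low groups did not separate on that share (exact permutation test, two-sided p = 0.3). Trav11, Traj18 and Zbtb16, the defining genes of the sorted lineage, had counts in all 6 libraries.

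**Figure D1:**
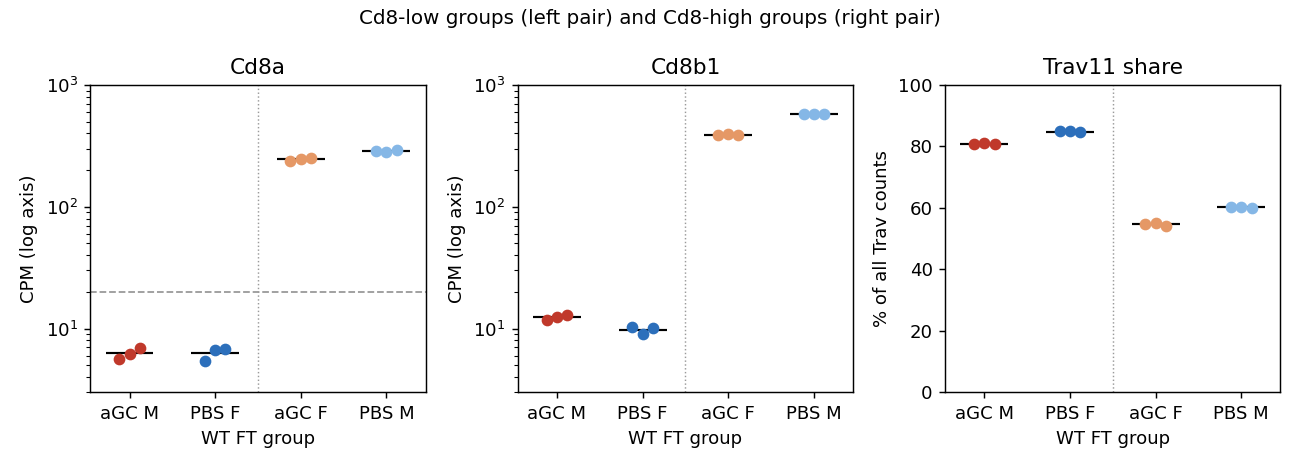
Levels of Cd8a and Cd8b1 (CPM, log axes) and the Trav11 share of Trav counts (percent) in the WT FT groups, with a point for each library, a bar for the group mean and, for Cd8a, a dashed line at 20 CPM. The aGC M and PBS F libraries sit near 6 CPM of Cd8a with Trav11 shares of 80.7 to 84.9%, and the Cd8-high groups average 54.6% and 60.2%.

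Marker RNA of other cell types was measured in both groups, at unequal levels. The summed level of the B cell marker list was 596 to 667 CPM in aGC M, against 1137 to 1186 CPM in PBS F, with counts for 20 of 21 markers in aGC M and 21 of 21 in PBS F, and Pax5 at 0 in aGC M. The gamma delta T cell list summed to 485 to 506 CPM in aGC M, against 1209 to 1231 CPM in PBS F, with counts for 9 of 9 markers in aGC M and 8 of 9 in PBS F, and Trdv4 at 0 in PBS F. Both sums were lower in every aGC M library. Trdc, the delta chain constant region, held means of 1.75 CPM of the gamma delta sum in aGC M and 2.37 CPM in PBS F. The regulatory T cell list, many of whose genes activated T cells also express, summed to 941 to 1019 CPM in aGC M, against 618 to 638 CPM in PBS F. The CD8 T cell list summed to 1570.1 to 1588 CPM in aGC M, against 1296 to 1356 CPM in PBS F, with counts for 9 of 11 markers in aGC M and 11 of 11 in PBS F, and Gzmk and Trav16 at 0 in aGC M. Of its 11 genes 3 rose, 6 fell and 2 did not pass, with Eomes and Cd8b1 among those higher. These counts include Cd8a and Cd8b1, although the Cd8a level chose the groups. Cd8a and Cd8b1 held means of 6.25 and 12.4 CPM of that sum in aGC M and 6.27 and 9.78 CPM in PBS F. The regulatory T cell and CD8 T cell sums were thus higher in every aGC M library. The myeloid and dendritic list summed to 440 to 469 CPM in aGC M, against 417 to 432 CPM in PBS F, with counts for 15 of 22 markers in aGC M and 18 of 22 in PBS F, and Fcgr1, Clec9a, Itgax and Cd209a at 0 in both groups and Cd14, Adgre1 and S100a9 also at 0 in aGC M. The NK and innate lymphoid list summed to 510 to 588 CPM in aGC M, against 703 to 740 CPM in PBS F, with counts for 14 of 16 markers in aGC M and 16 of 16 in PBS F, and Klra8 and Areg at 0 in aGC M. The erythroid, platelet and stromal list summed to 47.4 to 63.1 CPM in aGC M, against 72.2 to 85.4 CPM in PBS F. Their part in the differences described here was not tested, and in sorted bulk RNA fewer cells of a type cannot be told apart from less RNA per cell.

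Of 15469 autosomal genes tested, 9327 differed between aGC M and PBS F (60.3%; edgeR quasi-likelihood test, Benjamini-Hochberg adjusted p under 0.05). The test called 4434 genes higher after aGC (28.7%) and 4893 lower (31.6%). At least 2-fold changes were called in 2119 genes that rose (13.7%) and 2140 that fell (13.8%), and the median log2 change over all genes was -0.05. With the counts of each group summed into 1 profile, 605 genes were called higher and 135 lower, of which 563 and 118 changed at least 2-fold. That fit covers all 8 groups with additive terms for treatment and sex and has no term for the Cd8 level. A change that differs between Cd8-low and Cd8-high groups therefore counts as spread in it. Counts given for gene groups in the text therefore refer to the spread between libraries and are to be read against 28.7% higher and 31.6% lower over all genes. The share of all genes whose libraries do not overlap between the groups was not counted. A lack of overlap in a named gene is thus a description of that gene only and does not set it apart from other genes. The gene lists overlap in part and hold 948 entries, 887 of them tested.

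**Figure D2:**
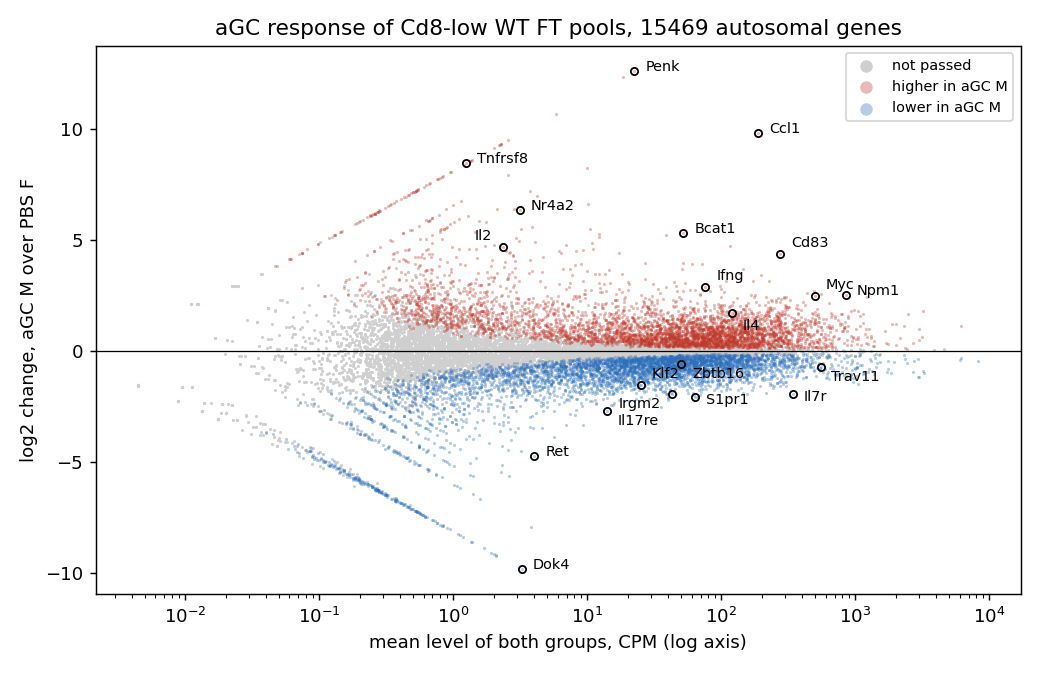
Log2 change, aGC M over PBS F, of each tested gene against its mean level (CPM, log axis), with selected genes marked and called genes in colour. Calls in both directions span the whole range of levels, and the largest changes are those of genes with almost no RNA in 1 of the groups.

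Genes almost silent in PBS F gave the largest rises. Ccl1, a chemokine of activated T cells that attracts cells with CCR8, was at 366, 357 and 407 CPM in the aGC M libraries, against 0.611, 0.342 and 0 CPM in the PBS F libraries (log2 change 9.82 ± 0.19, edgeR adjusted p = 1.03e-21). Penk (ENSMUSG00000045573.9, chromosome 4, 4133531 to 4138819 in GRCm38), which encodes the opioid precursor proenkephalin, was at 41.5, 46.3 and 46.9 CPM in aGC M and at 0 in all 3 PBS F libraries, a rise of at least 1050-fold (edgeR adjusted p = 7.72e-16). Both genes separated the groups in every library, and without PBS F replicate 1 the log2 change of Ccl1 was 10.92. In the Cd8-high comparison, aGC F against PBS M, Penk had a log2 change of -3.19. Its rise in the Cd8-low comparison cannot be told apart from a difference of sex. Utf1, a chromatin factor best known from pluripotent stem cells, was at 73.8, 72.4 and 80.1 CPM in the aGC M libraries, against 2.13, 2.22 and 1.55 CPM in the PBS F libraries (log2 change 5.23 ± 0.15, edgeR adjusted p = 9.76e-19). Bcat1, the cytosolic aminotransferase of branched-chain amino acids, was at 102, 104 and 100.1 CPM in the aGC M libraries, against 3.06, 3.02 and 1.15 CPM in the PBS F libraries (log2 change 5.31 ± 0.22, edgeR adjusted p = 9.91e-16). Hk2, the inducible hexokinase that feeds glucose into glycolysis, was at 22.3, 26.8 and 22.6 CPM in the aGC M libraries, against 0.850, 0.456 and 0.338 CPM in the PBS F libraries (log2 change 5.28 ± 0.37, edgeR adjusted p = 1.37e-11). In each of these 5 genes, picked by the size of the change, the lowest aGC M library lay above the highest PBS F library.

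The other genes of this set had lower levels. Rpp25, a subunit of RNases P and MRP, was at 4.91, 4.74 and 5.77 CPM in aGC M and at 0 in PBS F, at least 120-fold higher. Sema7a, a semaphorin of activated lymphocytes, averaged 5.08 CPM in aGC M, with a single count over the PBS F libraries, a ratio of 352 (95% interval 62.5 to 14000). Kcnh4, a potassium channel gene, averaged 7.45 CPM in aGC M and 0.0503 CPM in PBS F, a ratio of 175 (95% interval 59.2 to 851). The negative feedback phosphatase gene Dusp4 averaged 6.25 ± 0.131 CPM in aGC M and 0.155 ± 0.102 CPM in PBS F (log2 change 5.47 ± 0.41, edgeR adjusted p = 3.3e-11). Nr4a2, an orphan nuclear receptor switched on by antigen receptor signals, averaged 6.21 ± 0.621 CPM in aGC M and 0.0579 ± 0.0538 CPM in PBS F (log2 change 6.33 ± 0.38, edgeR adjusted p = 8.71e-13), with a log2 change of 7.32 without PBS F replicate 1. Rab34, Fam83g, Spire1 and Hpdl completed the set with log2 changes of 7.0, 6.61, 6.41 and 5.57, all with aGC M libraries above all PBS F libraries. Without PBS F replicate 1, Rab34 had 6.37 and Spire1 5.79. Fam83g overlaps Slc5a10, and reads without strand cannot be assigned between overlapping genes.

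The largest falls were of genes with low levels in PBS F. Dok4, an adaptor of receptor tyrosine kinases that overlaps Polr2c, was at 0 in aGC M and at 6.33, 6.83 and 6.35 CPM in PBS F, at least 90.3-fold lower (edgeR adjusted p = 5.5e-13). Ret, the receptor tyrosine kinase for GDNF family ligands, was at 0.372, 0.400 and 0.0740 CPM in the aGC M libraries, against 7.73, 6.32 and 9.25 CPM in the PBS F libraries (log2 change -4.73 ± 0.34, edgeR adjusted p = 1.6e-11). Nmur1, the receptor for the neuropeptide neuromedin U, was at 0.520, 0.601 and 0.814 CPM in the aGC M libraries, against 6.51, 6.95 and 8.31 CPM in the PBS F libraries (log2 change -3.47 ± 0.33, edgeR adjusted p = 3.32e-09). Tlr6, a Toll-like receptor for bacterial lipopeptides, was at 1.26, 1.33 and 1.18 CPM in the aGC M libraries, against 11.6, 12.8 and 13.6 CPM in the PBS F libraries (log2 change -3.31 ± 0.25, edgeR adjusted p = 5.31e-11). These 4 genes did not overlap between the groups. Bank1, a B cell scaffold protein, averaged 0.912 ± 0.158 CPM in aGC M and 6.87 ± 2.22 CPM in PBS F. It is itself a member of the B cell marker list, whose sum was lower in aGC M, and the part of B cells in its fall was not tested. Cdh4, a cadherin, was at 0, 0.0667 and 0 CPM in the aGC M libraries, against 1.2, 0.342 and 21.3 CPM in the PBS F libraries, so that 1 library held most of its counts. Its log2 change was -7.92, and -4.72 without PBS F replicate 3 or -10.06 without aGC M replicate 2. Acot11, an acyl-CoA thioesterase, was at 1.11, 0.534 and 0.222 CPM in the aGC M libraries, against 4.25, 3.42 and 13 CPM in the PBS F libraries, also uneven among the PBS F libraries. Its log2 change was -3.43, and -2.64 without PBS F replicate 3 or -4.11 without aGC M replicate 1. The falls of Tmem231, Art4, Zfp85, Kifc1, Hist2h2be, Zfp595 and Abhd15 ran from -4.51 for Tmem231 to -2.90 for Abhd15 on the log2 scale, and that of Hist2h2be was -4.13 without aGC M replicate 1.

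Among effector cytokines, 15 of 23 listed genes passed the filter on low counts, and 12 rose, 1 fell and 2 did not pass, with a median log2 change of 1.86. Ifng, the cytokine that defines iNKT1 cells, was at 136, 126 and 139 CPM in the aGC M libraries, against 18.7, 17.5 and 18.7 CPM in the PBS F libraries (log2 change 2.86 ± 0.09, edgeR adjusted p = 6.25e-18). Il4, the cytokine that defines iNKT2 cells, was at 183, 177 and 189 CPM in the aGC M libraries, against 58.1, 56.2 and 55 CPM in the PBS F libraries (log2 change 1.70 ± 0.09, edgeR adjusted p = 2.69e-14). The libraries of the 2 groups were apart in both genes. Il2, the growth factor of T cells, was at 4.31, 5.21 and 4.14 CPM in the aGC M libraries, against 0.160, 0.285 and 0.0675 CPM in the PBS F libraries (log2 change 4.67 ± 0.49, edgeR adjusted p = 1.25e-08). Il21, a cytokine that acts on B cells, was at 4.83, 7.01 and 4.29 CPM in the aGC M libraries, against 0.133, 0.342 and 0.608 CPM in the PBS F libraries (log2 change 4.04 ± 0.45, edgeR adjusted p = 3.38e-08). Each aGC M library lay above each PBS F library for both, at levels under 10 CPM. Il2 overlaps Adad1.

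Other signature cytokines were near the limit of detection. Il13, a further type 2 cytokine, averaged 0.551 CPM in aGC M with a single count over the PBS F libraries, a ratio of 38.4 (95% interval 6.23 to 1580). Il10, an anti-inflammatory cytokine, averaged 0.289 CPM in aGC M and was at 0 in PBS F, at least 6.67-fold higher. Il17a, the iNKT17 cytokine, did not pass the filter, with 9 counts over the aGC M libraries and 0 over the PBS F libraries. Il17f was at 0.372, 0.200 and 0 CPM in aGC M, against 0.186, 0.114 and 0.135 CPM in PBS F (edgeR adjusted p = 0.755). Csf1, a growth factor of macrophages, was at 3.05, 3.07 and 2.0 CPM in aGC M, against 4.7, 3.53 and 6.21 CPM in PBS F, with all aGC M libraries below, and did not pass the threshold (edgeR adjusted p = 0.0601).

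**Figure D3:**
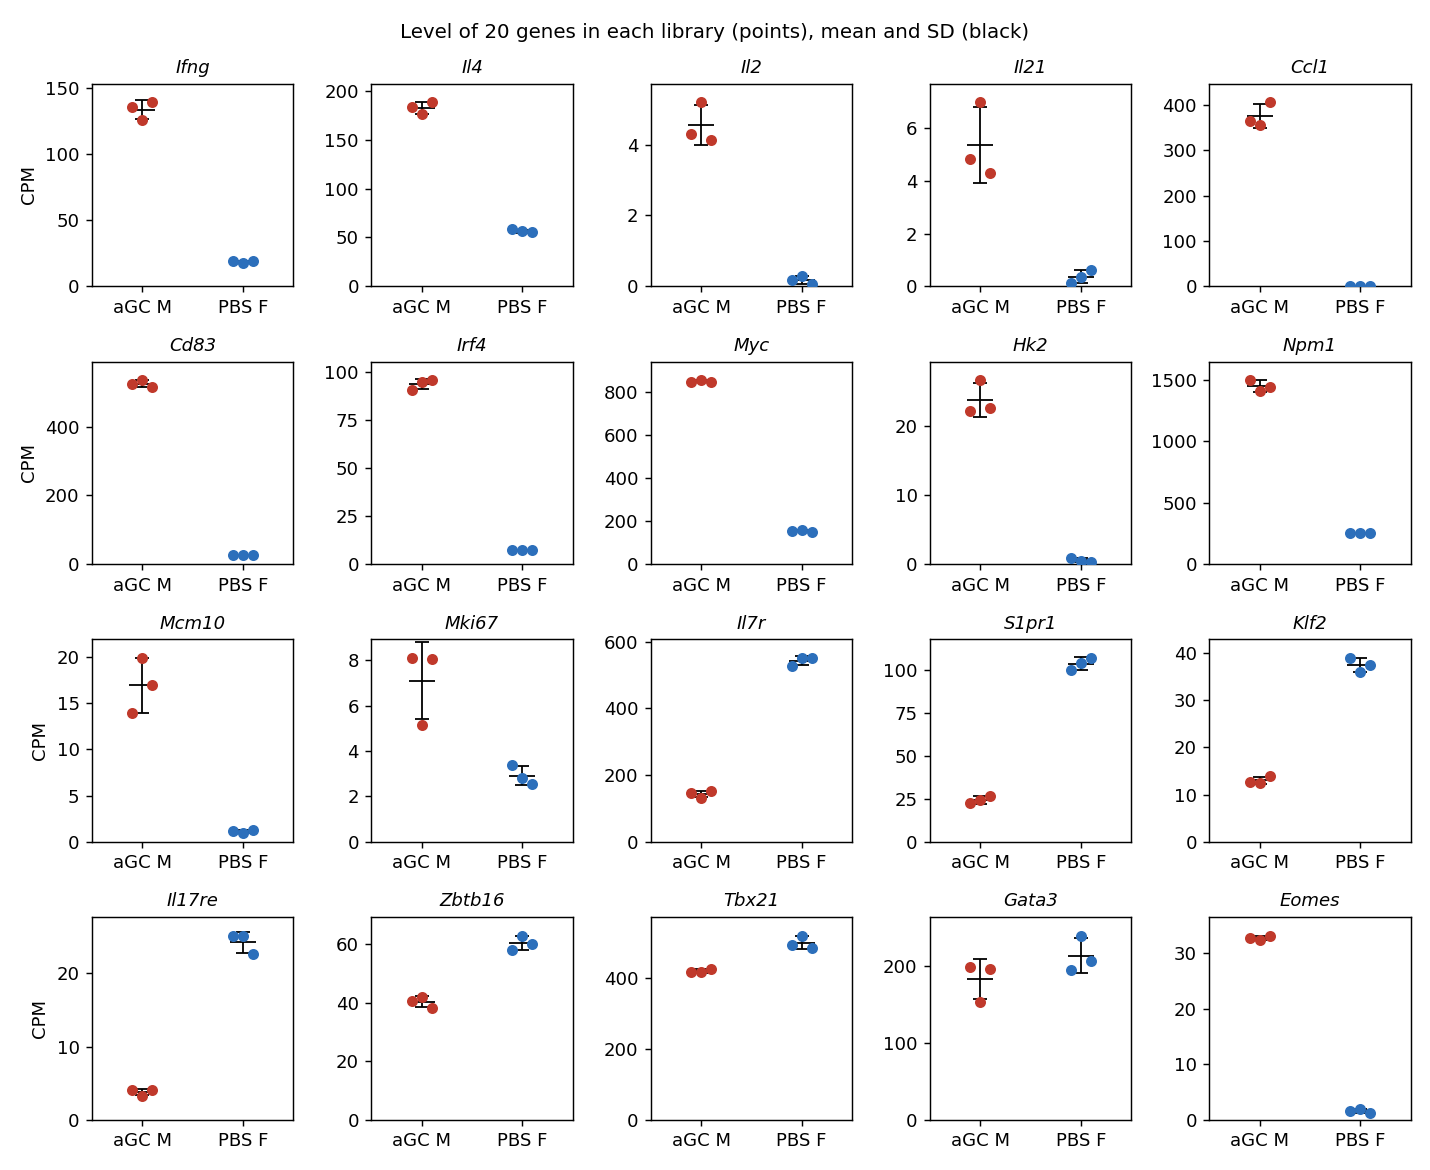
Level (CPM, each axis from 0) of 20 genes in each aGC M and PBS F library, with the group mean and SD as bars. Cytokine, activation, MYC and replication genes are higher in aGC M, while Il7r, S1pr1, Klf2, Il17re and Zbtb16 are lower.

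Of the 10 chemokine ligands tested 5 rose, 2 fell and 3 did not pass, with a median log2 change of 0.99. Ccl4, a chemokine of activated lymphocytes, was at 136, 126 and 144 CPM in the aGC M libraries, against 9.36, 8.43 and 8.71 CPM in the PBS F libraries (log2 change 3.93 ± 0.13, edgeR adjusted p = 1.28e-17). Ccl3, a related chemokine, averaged 5.33 ± 0.240 CPM in aGC M and 0.429 ± 0.233 CPM in PBS F (log2 change 3.75). The fall among them with the largest change was Ccl22, a ligand of CCR4 made by dendritic cells and activated lymphocytes, at 0.635 ± 0.214 CPM in aGC M and 3.6 ± 0.263 CPM in PBS F (log2 change -2.48 ± 0.37, edgeR adjusted p = 4.06e-06). Cxcl9, induced by interferon gamma, passed the test (edgeR adjusted p = 0.019) although the libraries overlapped, at 2.08, 0 and 0.370 CPM in aGC M, against 0.106, 0.0570 and 0.0675 CPM in PBS F. It no longer passed without aGC M replicate 1 (log2 change 1.05, edgeR adjusted p = 0.511) or without PBS F replicate 2 (log2 change 3.02, edgeR adjusted p = 0.0536). Cxcl16, the ligand of CXCR6, was at 2.89 CPM in aGC M and 1.86 CPM in PBS F and did not pass.

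Members of the TNF superfamily moved in both directions, with 10 higher, 5 lower and 5 not passing of 20. Tnfrsf4 (OX40), a costimulatory receptor of activated T cells, was at 114, 122 and 104 CPM in the aGC M libraries, against 7.84, 7.0 and 7.63 CPM in the PBS F libraries (log2 change 3.91 ± 0.12, edgeR adjusted p = 3.23e-18). Its ligand gene Tnfsf4 was at 20.9, 22.2 and 20.1 CPM in the aGC M libraries, against 0.771, 0.797 and 0.473 CPM in the PBS F libraries (log2 change 4.89 ± 0.20, edgeR adjusted p = 8.07e-16). Receptor and ligand thus both separated the groups. Tnfrsf9 (4-1BB), another costimulatory receptor, averaged 498 ± 33 CPM in aGC M and 91.4 ± 1.87 CPM in PBS F (log2 change 2.44). Tnfrsf8 (CD30) averaged 2.49 CPM in aGC M and was at 0 in PBS F, at least 58.4-fold higher, and its ligand gene Tnfsf8 had a log2 change of 2.23. Ltbr and Tnfrsf14, receptors of the lymphotoxin branch, did not pass, at log2 changes of -0.61 and -0.13.

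Of 18 tested genes of activation and costimulation 9 rose, 8 fell and 1 did not pass. Cd69, an early activation antigen that retains T cells in lymph nodes, was at 364, 352 and 368 CPM in the aGC M libraries, against 66.1, 66.4 and 68.3 CPM in the PBS F libraries (log2 change 2.43 ± 0.05, edgeR adjusted p = 1.31e-20). Cd83 was at 524, 536 and 516 CPM in the aGC M libraries, against 24.9, 25.7 and 26.7 CPM in the PBS F libraries (log2 change 4.35 ± 0.07, edgeR adjusted p = 3.31e-23). The 2 groups were apart in both genes. Cd200, an inhibitory ligand, and Tfrc, the transferrin receptor, had log2 changes of 2.81 and 2.68. Cd200r1, the receptor of CD200, moved the other way, at 6.15 ± 1.21 CPM in aGC M and 28.1 ± 1.14 CPM in PBS F (log2 change -2.18 ± 0.13, edgeR adjusted p = 1.2e-12). Cd226, an activating receptor, averaged 198 ± 3.56 CPM in aGC M and 188 ± 6.98 CPM in PBS F and did not pass.

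Of 16 co-inhibitory genes 10 rose, 3 fell and 3 did not pass. Lag3, a checkpoint receptor, was at 8.48, 6.07 and 6.44 CPM in the aGC M libraries, against 0.213, 0.513 and 0.608 CPM in the PBS F libraries (log2 change 4.09 ± 0.52, edgeR adjusted p = 3.47e-07). Pdcd1, the PD-1 gene, averaged 168 ± 12.6 CPM in aGC M and 75.2 ± 2.02 CPM in PBS F (log2 change 1.16), and Pdcd1lg2, a PD-1 ligand, had a log2 change of 1.97. Havcr2 (TIM-3), Cd244a and Klrg1 also rose, by 1.87, 1.32 and 1.56 on the log2 scale, with PBS F means of 0.513, 0.649 and 2.0 CPM. Havcr2 no longer passed without PBS F replicate 1 (log2 change 1.14, edgeR adjusted p = 0.0774) or without aGC M replicate 1 (log2 change 1.63, edgeR adjusted p = 0.0542), and without PBS F replicate 2 it had 3.23. Vsir and Tigit did not pass, at log2 changes of 0.05 and -1.13.

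Transcription factors that antigen receptor signals switch on rose in 28 of 44 cases, with 9 lower and 7 not passing. Irf4, which scales with receptor signal strength, was at 90.9, 94.8 and 96 CPM in the aGC M libraries, against 7.28, 7.12 and 7.29 CPM in the PBS F libraries (log2 change 3.70 ± 0.10, edgeR adjusted p = 2.75e-19). Irf8 was at 408, 421 and 404 CPM in the aGC M libraries, against 47.4, 43.8 and 47.5 CPM in the PBS F libraries (log2 change 3.15 ± 0.08, edgeR adjusted p = 3.65e-19). Both factors were higher in each aGC M library than in any PBS F library. Nr4a3 averaged 21 ± 1.23 CPM in aGC M and 1.86 ± 0.309 CPM in PBS F (log2 change 3.46), and Fosl1, an AP-1 subunit, averaged 2.03 ± 0.483 CPM in aGC M and 0.0709 ± 0.123 CPM in PBS F (log2 change 4.23, or 8.08 without PBS F replicate 1). Fosl2 and Ikzf2 did not pass, at log2 changes of -0.04 and 0.09.

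Genes of signal feedback were mixed, with 10 higher, 14 lower and 4 not passing of 28. Rgs16, which shortens G protein signals, averaged 49 ± 2.68 CPM in aGC M and 5.07 ± 0.457 CPM in PBS F (log2 change 3.26 ± 0.10, edgeR adjusted p = 5.58e-18). Spred1, an inhibitor of the Ras pathway, had a log2 change of 2.07, and its relative Spred2 one of -2.52, or -1.81 without PBS F replicate 1. Socs3, an inhibitor of cytokine receptor signals, averaged 17.7 ± 2.02 CPM in aGC M and 66.3 ± 3.85 CPM in PBS F (log2 change -1.90 ± 0.09, edgeR adjusted p = 6.64e-15). Rgs1 and Rcan1 did not pass, at 0.00 and -0.09.

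The factors that set iNKT lineage and subset were lower more often than higher after aGC: of 20 tested 4 rose, 12 fell and 4 did not pass. Zbtb16, which encodes PLZF, the master factor of the lineage, was at 40.5, 42.1 and 38.3 CPM in the aGC M libraries, against 58.2, 63 and 60.1 CPM in the PBS F libraries (log2 change -0.58 ± 0.09, edgeR adjusted p = 2.73e-06). All its aGC M libraries were below all PBS F libraries. Tbx21, which encodes T-bet of iNKT1 cells, was at 417, 418 and 427 CPM in the aGC M libraries, against 494, 521 and 487 CPM in the PBS F libraries, a small fall without overlap (log2 change -0.25 ± 0.05, edgeR adjusted p = 9.29e-05). Gata3, which iNKT2 cells need, was at 199, 152 and 196 CPM in the aGC M libraries, against 195, 239 and 206 CPM in the PBS F libraries with overlap, and did not pass (edgeR adjusted p = 0.0688).

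Other lineage factors moved by more. Eomes, a T-box factor related to T-bet, was at 32.9, 32.4 and 33.2 CPM in the aGC M libraries, against 1.49, 1.88 and 1.15 CPM in the PBS F libraries (log2 change 4.43 ± 0.14, edgeR adjusted p = 4.69e-18). Nfil3, a basic leucine zipper factor, averaged 18.4 ± 1.68 CPM in aGC M and 1.53 ± 0.348 CPM in PBS F (log2 change 3.59 ± 0.20, edgeR adjusted p = 1.23e-13). Bach2, a repressor that restrains effector genes, had a log2 change of 1.1. Zfp683 (Hobit), a factor of tissue-resident lymphocytes, averaged 42.2 ± 3.71 CPM in aGC M and 111 ± 1.85 CPM in PBS F (log2 change -1.39 ± 0.06, edgeR adjusted p = 4.03e-15), and Bcl11b, needed for T cell identity, had a log2 change of -1.1. Runx1 did not pass, at -0.11. Bcl6, the factor of follicular helper cells, was at 9.29, 7.47 and 6.29 CPM in the aGC M libraries, against 4.25, 3.59 and 4.93 CPM in the PBS F libraries (log2 change 0.85 ± 0.21, edgeR adjusted p = 0.0014).

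Follicular helper genes rose in 9 of 11 cases, with 1 lower and 1 not passing. Cxcr5, the receptor that guides cells to B cell follicles, was at 31.8, 37.6 and 30.4 CPM in the aGC M libraries, against 2.58, 4.04 and 2.5 CPM in the PBS F libraries (log2 change 3.47 ± 0.16, edgeR adjusted p = 5.08e-15). Pou2af1, a coactivator also strong in B cells, rose by 2.22 on the log2 scale. The summed B cell markers were lower in aGC M, and the part of B cells in the Pou2af1 level was not tested. Tox2 did not pass, at -0.17.

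The marker lists of the 3 iNKT subsets all summed lower in aGC M. The iNKT1 list summed to 6010 to 6108 CPM in aGC M, against 8051 to 8188 CPM in PBS F, and of 25 genes 5 rose, 17 fell and 3 did not pass. Xcl1, a chemokine for cross-presenting dendritic cells, and Gzmb, granzyme B, rose by 1.37 and 2.02 on the log2 scale. Ifngr1, the interferon gamma receptor chain, averaged 136 ± 5.64 CPM in aGC M and 407 ± 12.9 CPM in PBS F (log2 change -1.58 ± 0.06, edgeR adjusted p = 4.72e-16), and Il18rap, a chain of the interleukin 18 receptor, had a log2 change of -1.67. The kinase gene Txk had a log2 change of -1.45. Fcer1g and Gzma did not pass, at 0.05 and 0.30.

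The iNKT2 list summed to 4285 to 4399 CPM in aGC M, against 5131 to 5264 CPM in PBS F, and of 17 genes 6 rose, 8 fell and 3 did not pass. With median-of-ratios scaling 4 of them were called lower, and with DESeq2 5. Il17rb, the receptor for interleukin 25 that marks iNKT2 cells, was at 84.8, 90.4 and 88.5 CPM in the aGC M libraries, against 241, 232 and 226 CPM in the PBS F libraries (log2 change -1.41 ± 0.05, edgeR adjusted p = 5.7e-17). Lta, lymphotoxin alpha, and Ltb, lymphotoxin beta, moved apart, at log2 changes of 1.44 and -0.79. Ccr4 and Plac8 did not pass, at -0.15 and -0.10.

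The iNKT17 list summed to 1413 to 1487 CPM in aGC M, against 3688 to 3738 CPM in PBS F. Of its 21 genes 0 rose, 20 fell and 1 did not pass, with a median log2 change of -1.02 against -0.05 over all genes. Il17re, a chain of the receptor for interleukin 17C, was at 4.02, 3.27 and 4.0 CPM in the aGC M libraries, against 25.2, 25.1 and 22.6 CPM in the PBS F libraries (log2 change -2.69 ± 0.19, edgeR adjusted p = 1.76e-11). Ccr2, a chemokine receptor of inflammatory sites, was at 46.2, 42.2 and 45 CPM in the aGC M libraries, against 193, 181 and 188 CPM in the PBS F libraries (log2 change -2.08 ± 0.10, edgeR adjusted p = 7.31e-15). The 2 groups were apart in both. Itgb7, the gut-homing beta 7 integrin, averaged 548 ± 27.8 CPM in aGC M and 1532 ± 14.6 CPM in PBS F (log2 change -1.48), and Aqp3, a water and glycerol channel, had a log2 change of -1.78. Ccr6 was the gene of the list that did not pass, at -0.15. The gamma delta T cell list fell beside it, with 0 of 8 higher and 7 lower. In that list Tcrg-C1, a gamma chain constant region, averaged 124 ± 1.74 CPM in aGC M and 357 ± 7.94 CPM in PBS F (log2 change -1.52), and Trdc, the delta chain constant region, averaged 1.75 ± 0.697 CPM in aGC M and 2.37 ± 0.165 CPM in PBS F and did not pass.

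The invariant receptor itself was lower after aGC. Trav11, its variable alpha segment, was at 406, 430.2 and 422 CPM in the aGC M libraries, against 708, 665 and 666 CPM in the PBS F libraries (log2 change -0.70 ± 0.05, edgeR adjusted p = 3.93e-11). Traj18, its joining segment, was at 55.8, 60.2 and 55.5 CPM in the aGC M libraries, against 98.8, 94 and 97.8 CPM in the PBS F libraries (log2 change -0.76 ± 0.06, edgeR adjusted p = 4.61e-11). Each aGC M library lay below each PBS F library in both. The beta segments Trbv13-1, Trbv13-2 and Trbv13-3 had log2 changes of -0.71, -0.74 and -0.71, while Trbv29 averaged 88.5 ± 7.29 CPM in aGC M and 87.5 ± 2.84 CPM in PBS F and did not pass. Of the 10 genes of the list 0 rose, 9 fell and 1 did not pass. The near-identical Trav11d was at 0 in both groups, and an estimator can split reads between such copies.

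The signalling chain behind the receptor was lower too, with 3 higher, 20 lower and 4 not passing of 27. Skap1, an adaptor of integrin activation, averaged 462 ± 24 CPM in aGC M and 939 ± 9.91 CPM in PBS F (log2 change -1.02 ± 0.04, edgeR adjusted p = 8.18e-17). Grap2, Rasgrp1 and Plcg1, which link the receptor to Ras and calcium signals, had log2 changes of -0.97, -0.92 and -0.82. Cd2, an adhesion receptor, had one of -0.92. Ptprc (CD45) averaged 826 ± 35.6 CPM in aGC M and 817 ± 15 CPM in PBS F and did not pass. Csk, a kinase that restrains the pathway, averaged 192 ± 7.2 CPM in aGC M and 192 ± 9.29 CPM in PBS F and did not pass either.

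Il7r, S1pr1 and Klf2 were lower after aGC. Il7r, the interleukin 7 receptor alpha chain, was at 146, 132 and 151 CPM in the aGC M libraries, against 526, 550.1 and 551 CPM in the PBS F libraries (log2 change -1.92 ± 0.09, edgeR adjusted p = 3.89e-15). S1pr1, the sphingosine phosphate receptor that lets lymphocytes leave nodes, was at 22.4, 24.3 and 26.9 CPM in the aGC M libraries, against 100, 104 and 107 CPM in the PBS F libraries (log2 change -2.08 ± 0.06, edgeR adjusted p = 2.91e-18). Klf2, the factor that drives S1pr1, was at 12.6, 12.6 and 13.8 CPM in the aGC M libraries, against 39, 36 and 37.4 CPM in the PBS F libraries (log2 change -1.53 ± 0.07, edgeR adjusted p = 3.6e-15). None of the 3 genes overlapped between the groups. Among 27 cytokine receptors 17 were lower and 7 higher. Among 34 migration and adhesion genes 20 were lower, 14 of them at least 2-fold, and 5 higher.

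Some members of these lists were higher. Il2ra, the high-affinity chain of the interleukin 2 receptor, was at 195, 217 and 202 CPM in the aGC M libraries, against 62, 61.7 and 67.3 CPM in the PBS F libraries (log2 change 1.69 ± 0.06, edgeR adjusted p = 8.45e-17). Il1rl1, the interleukin 33 receptor, and Il1r2, a decoy receptor of interleukin 1, rose by 1.66 and 2.21 on the log2 scale, at aGC M means of 1.45 and 0.504 CPM. Il1r2 no longer passed without PBS F replicate 2 (log2 change 1.78, edgeR adjusted p = 0.061), PBS F replicate 3 (1.84, edgeR adjusted p = 0.0548) or aGC M replicate 3 (2.08, edgeR adjusted p = 0.0527), and without PBS F replicate 1 it had 6.08. Il1rl1 no longer passed without PBS F replicate 1 (log2 change 1.54, edgeR adjusted p = 0.0834), PBS F replicate 3 (1.51, edgeR adjusted p = 0.073) or aGC M replicate 3 (1.22, edgeR adjusted p = 0.141).

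Other members were lower. Gpr15, a gut-homing receptor, had 0 counts in aGC M and 18 counts over the PBS F libraries, at least 3.6-fold lower. Itga1, an integrin for collagen, had a log2 change of -1.95. Among 18 naive and recirculation genes 13 were lower and 3 higher. The lower ones include Igfbp4 and Txnip, an inhibitor of glucose uptake, at log2 changes of -1.75 and -1.71. Crlf2, Il9r, Ccr10, Dapl1 and Actn1 did not pass.

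Of 16 cytotoxic genes 8 rose, 4 fell and 4 did not pass. Gzmb was at 26.9, 29.1 and 22.9 CPM in the aGC M libraries, against 6.25, 6.78 and 6.48 CPM in the PBS F libraries (log2 change 2.02 ± 0.18, edgeR adjusted p = 5.9e-10). Prf1, the pore former perforin, was at 17.6, 18.7 and 16.6 CPM in the aGC M libraries, against 35.8, 36.7 and 37.8 CPM in the PBS F libraries (log2 change -1.06 ± 0.07, edgeR adjusted p = 9.39e-12). The 2 genes thus moved in opposite directions, each without overlap between the groups. Crtam, a receptor of activated cytotoxic cells, averaged 98 ± 2.37 CPM in aGC M and 6.27 ± 0.716 CPM in PBS F (log2 change 3.98), and Srgn, the granule proteoglycan serglycin, had a log2 change of 1.40. Gzmk was at 0 in aGC M, at least 1.8-fold lower, and overlaps Esm1. Serpinb6b did not pass, at 0.08.

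Growth and division genes were higher after aGC. Myc, which drives ribosome and nucleotide synthesis, was at 847, 857 and 848 CPM in the aGC M libraries, against 155, 156 and 151 CPM in the PBS F libraries (log2 change 2.47 ± 0.08, edgeR adjusted p = 4.72e-18). Npm1, a nucleolar chaperone of ribosome assembly, was at 1503, 1409 and 1445 CPM in the aGC M libraries, against 251, 251 and 255 CPM in the PBS F libraries (log2 change 2.52 ± 0.06, edgeR adjusted p = 2.26e-20). Every aGC M library was above every PBS F library. Ncl, Nhp2 and Nolc1, further nucleolar genes, had log2 changes of 2.42, 2.38 and 2.36. Of 36 genes of the MYC network and ribosome biogenesis 26 rose, 6 fell and 4 did not pass, with a median log2 change of 1.62. Polr1a and Mlx did not pass, at 0.06 and 0.03.

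Cytosolic ribosomal proteins rose nearly as a block: of 48 genes 47 rose, 0 fell and 1 did not pass, with 38 rises of at least 2-fold and a median log2 change of 1.23. Rpl38 was at 174, 161 and 210.2 CPM in the aGC M libraries, against 50.5, 44.9 and 43.6 CPM in the PBS F libraries (log2 change 1.97 ± 0.14, edgeR adjusted p = 2.33e-11). Rps15, Rpl27 and Rpl6 had log2 changes of 1.80, 1.61 and 1.56. Ribosomal protein genes have many processed pseudogenes, between which an estimator can split reads.

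Of 46 DNA replication genes 44 rose, 0 fell and 2 did not pass, with 34 rises of at least 2-fold and a median log2 change of 1.53. Mcm10, which starts replication forks, was at 13.9, 19.9 and 16.9 CPM in the aGC M libraries, against 1.12, 0.911 and 1.28 CPM in the PBS F libraries (log2 change 3.94 ± 0.21, edgeR adjusted p = 1.27e-13). Cdc6, which loads the MCM helicase, was at 70.6, 67.6 and 64.7 CPM in the aGC M libraries, against 8.93, 9.62 and 8.91 CPM in the PBS F libraries (log2 change 2.89 ± 0.12, edgeR adjusted p = 4.72e-16). The groups did not overlap in either. Orc1, of the origin recognition complex, and Gins1 and Gins2, of the active helicase, had log2 changes of 3.48, 3.05 and 3.08. Rpa1 and Gins3 did not pass, at -0.10 and -0.13.

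Mitosis genes rose less uniformly: of 26 genes 15 rose, 3 fell and 8 did not pass, with a median log2 change of 0.67. Mki67, the Ki-67 antigen of cycling cells, was at 8.11, 5.14 and 8.06 CPM in the aGC M libraries, against 3.38, 2.79 and 2.57 CPM in the PBS F libraries (log2 change 1.27 ± 0.30, edgeR adjusted p = 0.000865). Cdk1, the kinase of mitotic entry, was at 19.9, 21.1 and 26.3 CPM in the aGC M libraries, against 4.49, 5.64 and 4.79 CPM in the PBS F libraries (log2 change 2.18 ± 0.22, edgeR adjusted p = 7.69e-09). In both genes the groups were apart, at Mki67 levels under 10 CPM. Aurkb, Bub1b, Kif11 and Ccnf had log2 changes of 1.64, 1.60, 1.61 and 1.59, while Kif23 and Ttk did not pass, at 0.14 and 0.10.

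**Figure D4:**
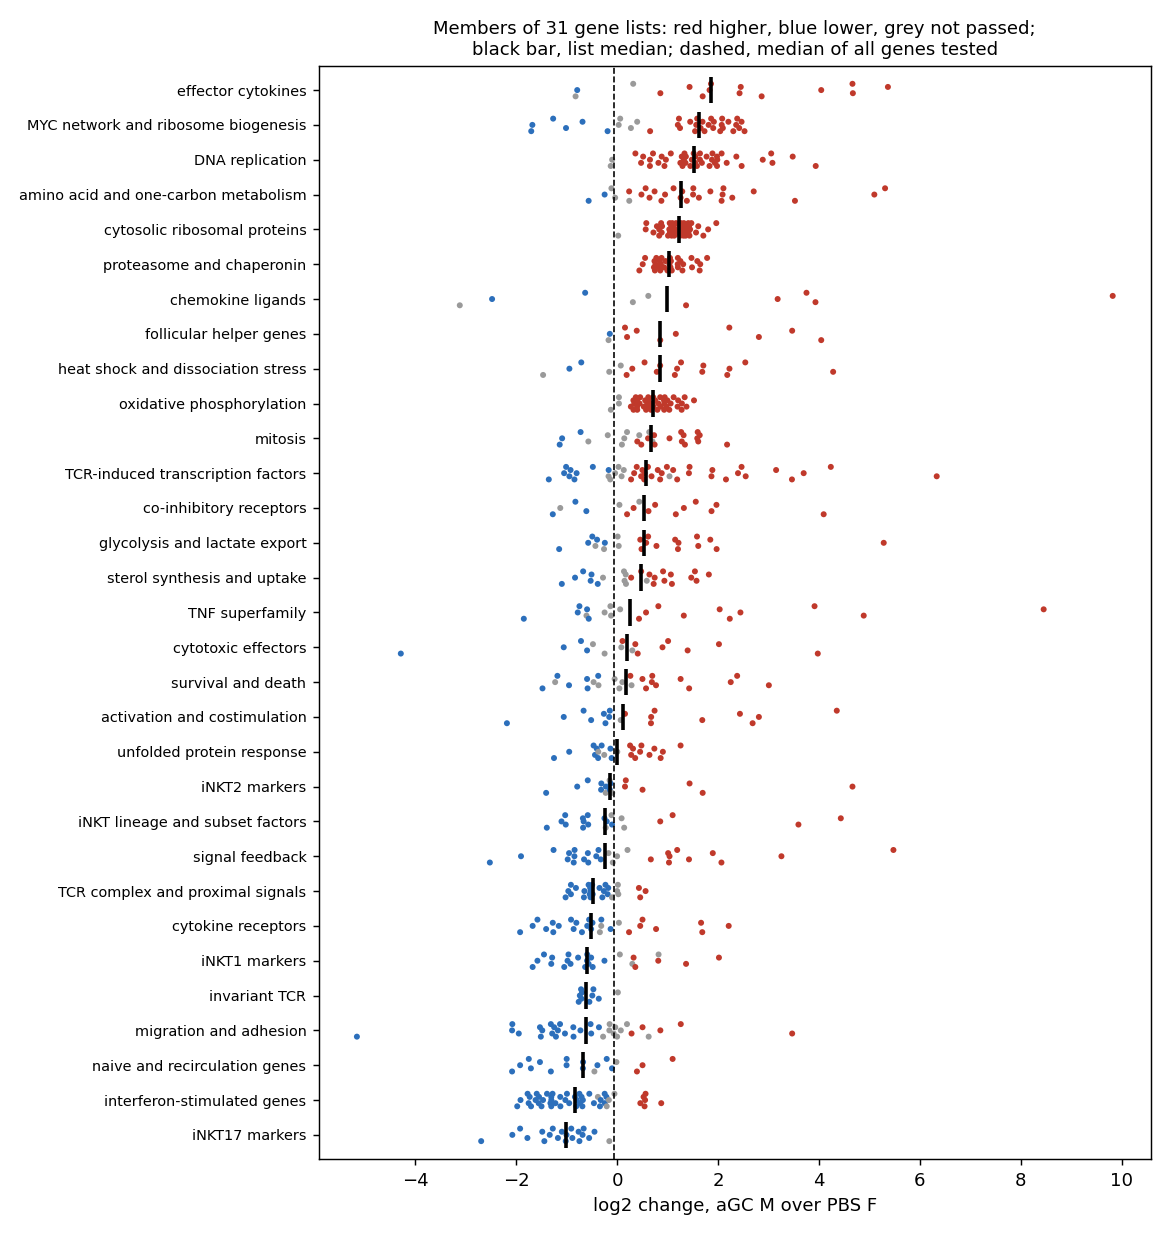
Log2 change, aGC M over PBS F, of each tested member of 31 gene lists, coloured by call, with a black bar at the list's median and a dashed line at the median of all genes. Effector cytokines, at 1.86, the MYC network, at 1.62, and DNA replication, at 1.53, have the highest medians of the lists shown, and iNKT17 markers, at -1.02, the lowest.

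Metabolic genes were higher more often than lower after aGC. Of 28 genes of amino acid and one-carbon metabolism 23 rose, 2 fell and 3 did not pass. Shmt1, which moves one-carbon units from serine to folate, was at 236, 257 and 249 CPM in the aGC M libraries, against 20.6, 19.6 and 24.7 CPM in the PBS F libraries (log2 change 3.52 ± 0.08, edgeR adjusted p = 1.38e-20). Asns, asparagine synthetase, was at 6.25, 5.74 and 5.03 CPM in the aGC M libraries, against 0.133, 0.285 and 0.0675 CPM in the PBS F libraries (log2 change 5.10 ± 0.34, edgeR adjusted p = 4.08e-12). Odc1 and Srm, enzymes of polyamine synthesis, had log2 changes of 2.28 and 2.71. None of these genes overlapped between the groups. Trib3 and Bcat2 did not pass, at 0.24 and -0.04.

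Of 22 genes of glycolysis and lactate export 13 rose, 5 fell and 4 did not pass. Beside Hk2, Slc16a1, a lactate exporter, averaged 155 ± 8.28 CPM in aGC M and 43.2 ± 1.69 CPM in PBS F (log2 change 1.85), and Tpi1, Pgam1 and Gapdh had log2 changes of 1.97, 1.61 and 1.58. Pfkp and Pfkfb3 did not pass, at 0.03 and 0.01. Oxidative phosphorylation was higher in 42 of 45 genes and lower in 0, with 10 rises of at least 2-fold and a median log2 change of 0.72. Atp5g1, of the ATP synthase, averaged 403 ± 25.8 CPM in aGC M and 140.1 ± 6.05 CPM in PBS F. Cox5a, of complex IV, averaged 339 ± 23.3 CPM in aGC M and 130.5 ± 6.68 CPM in PBS F. Of 25 sterol genes 13 rose, 6 fell and 6 did not pass. Sqle, squalene epoxidase, averaged 73.5 ± 0.952 CPM in aGC M and 20.8 ± 2.05 CPM in PBS F (log2 change 1.82), Fasn, fatty acid synthase, had a log2 change of 1.47, and Abcg1, a cholesterol exporter, one of -1.1.

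All 33 tested genes of the proteasome and the chaperonin passed and were higher after aGC, 17 of them at least 2-fold. Cct5, a chaperonin subunit, averaged 1636 ± 103 CPM in aGC M and 475 ± 3.92 CPM in PBS F (log2 change 1.78 ± 0.05, edgeR adjusted p = 2.93e-19), and Psma6, a proteasome subunit, had a log2 change of 1.64. Genes of heat shock and dissociation stress rose in 14 of 19 cases, with 2 lower and 3 not passing. Hsp90aa1 averaged 670.2 ± 38.9 CPM in aGC M and 143 ± 8.69 CPM in PBS F (log2 change 2.23), and the mitochondrial chaperones Hspd1 and Hspe1, whose genes overlap, had log2 changes of 2.18 and 2.54. Atf3, a stress factor, averaged 5.42 ± 0.988 CPM in aGC M and 0.206 ± 0.265 CPM in PBS F (log2 change 4.28, or 6.29 without PBS F replicate 1). Hspa1a and Zfp36 did not pass, at -1.47 and 0.07.

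The unfolded protein response was split, with 11 of 23 higher and 9 lower. Atf4, which induces amino acid synthesis genes, rose by 1.26 on the log2 scale, while Ddit3 (CHOP), a later factor of the pathway, had a log2 change of -0.95 and the sensor kinase gene Eif2ak3 one of -1.25. Of 24 survival and death genes 11 rose, 6 fell and 7 did not pass. Bcl2l11, which encodes the killer protein BIM, was at 92.1, 92.8 and 104 CPM in the aGC M libraries, against 16.6, 19.5 and 25.5 CPM in the PBS F libraries (log2 change 2.25 ± 0.15, edgeR adjusted p = 3.9e-12). Bcl2l1, which encodes the protective BCL-XL, was at 186, 192 and 185 CPM in the aGC M libraries, against 69.2, 71.9 and 68.5 CPM in the PBS F libraries (log2 change 1.43 ± 0.06, edgeR adjusted p = 4.98e-16). Genes of both actions thus rose without overlap. Cdkn1a, the cell cycle inhibitor p21, had a log2 change of 3.01, and Bbc3 (PUMA), another killer gene, one of -1.48. Mcl1 and Bad did not pass, at 0.04 and -0.05.

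Interferon-stimulated genes were lower in aGC M than in PBS F, although Ifng itself was higher. Of 49 genes 6 rose, 39 fell and 4 did not pass, 22 of them falling at least 2-fold and 0 rising at least 2-fold, with a median log2 change of -0.84. Ifit1bl1 was at 59.5, 59.99 and 61.9 CPM in the aGC M libraries, against 201, 201 and 209.7 CPM in the PBS F libraries (log2 change -1.75 ± 0.06, edgeR adjusted p = 3.61e-17). Irgm2, an immunity GTPase that overlaps Igtp, was at 18.2, 19.1 and 17.1 CPM in the aGC M libraries, against 71.5, 66.8 and 66.7 CPM in the PBS F libraries (log2 change -1.91 ± 0.07, edgeR adjusted p = 2.13e-16). Ddx58, which encodes the RNA sensor RIG-I, was at 46, 38.5 and 35.7 CPM in the aGC M libraries, against 142, 134 and 136 CPM in the PBS F libraries (log2 change -1.77 ± 0.08, edgeR adjusted p = 6.34e-15). The aGC M libraries were below the PBS F libraries in all 3 genes. Ifi206 and Oas2 had log2 changes of -1.73 and -1.98, and Isg15 and Ifih1 did not pass, at -0.05 and -0.21.

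The direction of this list differed between comparisons. In the Cd8-high libraries, aGC F against PBS M, 27 of the 49 genes were higher (30.1% over all genes) and 4 lower (32.7%), with a median log2 change of 0.33. In the KO FT libraries, aGC M against PBS F, 1 was higher (25.9% over all genes) and 39 lower (24.1%), with a median of -0.69. The test of the difference between the Cd8-low and the Cd8-high response called 1 of the genes higher and 43 lower in the Cd8-low response, against 18.4% higher and 22% lower over all genes. Ifit3, chosen after its values were seen, had a log2 change of -1.39 in the Cd8-low libraries, 1.2 in the Cd8-high libraries and -1.77 in the KO FT libraries. The Cd8-high comparison has the sexes reversed (aGC in F, PBS in M), so the difference cannot be told apart from one of sex.

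Promoter sequences of members are shown to give the letters of the interferon-stimulated response element, a motif known from this class of genes, beside the changes. The letters searched were GAAANNGAAA on both strands, which reads TTTCNNTTTC on the other, within 250 bases before the start site, in RefSeq promoters of GRCm38.p6. A match was found in 20 of the 36 listed genes with a promoter in that table (55.6%), against 295 of 10223 tested genes with a promoter (2.89%). Among the 36 genes it was found in 15 of 29 that fell, 4 of 4 that rose and 1 of 3 that did not pass, so members of both directions held it. The start site was that of the RefSeq promoter nearest the GENCODE gene start. It lay 15359 bases from that gene start for Irgm2, 2956 for Gbp5 and 1926 for Tgtp1, which each had a match. Such a match may belong to another start site. The windows hold 81 to 100 bases, 5′ to 3′ on the gene's strand, with the match in capitals, overlapping matches run together, and the Cd8-low log2 change beside the name. They were chosen after the values were seen, to hold genes that fell, a gene that did not pass and genes that rose.
Ifit1bl1, chr19:34602018-34602117 (minus strand, log2 change -1.75): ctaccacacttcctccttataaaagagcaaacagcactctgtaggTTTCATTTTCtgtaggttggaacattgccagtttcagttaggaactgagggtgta
Ifit3, chr19:34583362-34583461 (plus strand, log2 change -1.39): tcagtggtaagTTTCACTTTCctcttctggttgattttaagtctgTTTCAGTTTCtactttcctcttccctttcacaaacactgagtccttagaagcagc
Ifit1, chr19:34640759-34640858 (plus strand, log2 change -1.30): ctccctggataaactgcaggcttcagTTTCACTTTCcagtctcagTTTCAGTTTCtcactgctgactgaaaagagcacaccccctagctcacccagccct
Rsad2, chr12:26456518-26456617 (minus strand, log2 change -1.32): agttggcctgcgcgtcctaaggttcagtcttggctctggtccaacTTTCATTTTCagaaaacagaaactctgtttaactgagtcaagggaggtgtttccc
Trim30a, chr7:104465194-104465274 (minus strand, log2 change -1.30): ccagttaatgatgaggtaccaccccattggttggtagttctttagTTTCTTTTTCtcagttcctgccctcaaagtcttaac
Stat2, chr10:128270248-128270330 (plus strand, log2 change -0.95): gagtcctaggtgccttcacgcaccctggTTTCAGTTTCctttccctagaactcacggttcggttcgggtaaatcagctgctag
Isg15, chr4:156200830-156200929 (minus strand, log2 change -0.05): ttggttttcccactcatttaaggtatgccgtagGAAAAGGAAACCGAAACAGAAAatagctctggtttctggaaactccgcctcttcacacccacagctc
Bst2, chr8:71537542-71537641 (minus strand, log2 change 0.52): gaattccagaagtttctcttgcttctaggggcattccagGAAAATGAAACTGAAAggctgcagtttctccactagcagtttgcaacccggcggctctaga
Gbp2, chr3:142620559-142620658 (plus strand, log2 change 0.56): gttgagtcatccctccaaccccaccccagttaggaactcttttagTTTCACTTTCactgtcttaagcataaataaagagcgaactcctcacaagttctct
Gbp3, chr3:142559960-142560043 (plus strand, log2 change 0.87): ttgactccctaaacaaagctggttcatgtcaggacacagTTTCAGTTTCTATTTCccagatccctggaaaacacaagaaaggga
A match is a description of letters and not a measured binding site.

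**Figure D5:**
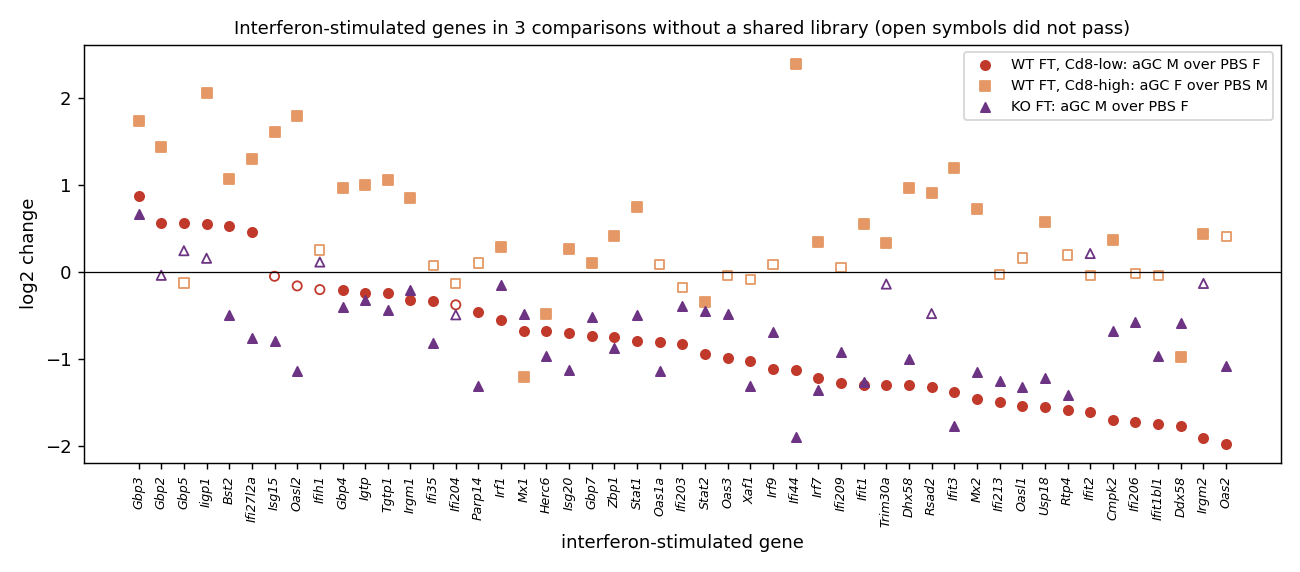
Log2 change of each of the 49 interferon-stimulated genes along the horizontal axis in the Cd8-low WT FT, Cd8-high WT FT and KO FT comparisons, with open symbols for values that did not pass. Points of the Cd8-low and KO FT comparisons lie mostly below 0, and those of the Cd8-high comparison mostly above.

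With 1 profile per group, in the fit without a term for the Cd8 level, many named genes lost their call. Many of them had been named for the size of their change, so this loss does not describe all genes. That fit also called more of all genes higher than lower. Most named genes called lower did not stay past the threshold in the same direction, while a larger part of those called higher did. Those that did included Ifng (edgeR adjusted p = 0.0122), Ccl1 (0.0138), Irf4 (0.00851), Cd83 (0.00142), Myc (0.0103), Mcm10 (0.0102), Il7r (0.0178) and Ccr2 (0.0444). Those that did not included Il4 (edgeR adjusted p = 0.0784), Il2 (0.0538), Penk (0.617), Mki67 (0.308), Zbtb16 (0.738), S1pr1 (0.558), Klf2 (0.798) and Trav11 (0.234). By list, part of the MYC network, ribosomal protein, replication, proteasome and chaperonin and cytokine genes was then still called higher. Of the lists that fell, few iNKT17 markers and interferon-stimulated genes and no invariant receptor genes were then called lower. Far fewer of all genes were called in that fit than over the libraries, so the shares over the libraries are no measure for it.

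Comparisons with matched sex share libraries with the Cd8-low comparison and pair a Cd8-low with a Cd8-high group, so their values are given side by side only. Within F libraries (aGC F against PBS F) 9098 genes were called (58.8%), and within M libraries (aGC M against PBS M) 10324 (66.7%). Ifng had log2 changes of 2.86 in the Cd8-low comparison, 2.63 within F and 3.18 within M. Il4 had 1.70, 0.96 and 2.56 in the same order, Ccl1 9.82, 8.65 and 6.12, and Myc 2.47, 2.39 and 1.87. Irf4 had 3.70, 3.15 and 3.22, and Il7r -1.92, -2.08 and -1.53. In these genes the 3 values had the same sign, and in others they did not. S1pr1 had log2 changes of -2.08 in the Cd8-low comparison, 0.62 within F and -3.39 within M, while Klf2 had -1.53, 1.66 and -3.82. Igfbp4 had -1.75, 0.69 and -3.36, and Tbx21 -0.25, -0.27 and 0.53. Cd8a itself, which the choice of groups fixes, had log2 changes of 5.32 within F and -5.52 within M, and its part in these values was not tested.

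The Cd8-high comparison shares no library with the Cd8-low one. It called 9711 genes (62.8%), with 1881 rises (12.2%) and 2326 falls (15%) of at least 2-fold. Over 8257 genes with a mean of at least 10 CPM the log2 changes of the 2 comparisons had a Pearson r of 0.763 and a Spearman rho of 0.763, as a description across genes, which are not independent and share the reversed sex labels. Of the 2119 genes that rose at least 2-fold in the Cd8-low comparison, 1016 did so in the Cd8-high one (47.9%), which is 54.0% of its own rises. Of the 2140 that fell at least 2-fold, 690 did so in both (32.2% of the Cd8-low and 29.7% of the Cd8-high falls). The test of the difference called 6255 genes (40.4%), 2845 with a higher (18.4%) and 3410 with a lower (22%) response in the Cd8-low libraries. That difference equals the sum of the M minus F differences after aGC and after PBS. It therefore cannot be told apart from a difference of sex, also for the lists and genes that follow.

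Ribosomal proteins were the list in which the Cd8-low response was most often the higher one, with 46 of 48 called higher and 0 lower, and medians of 1.23 in Cd8-low and 0.57 in Cd8-high libraries. Of 26 mitosis genes 18 were called lower and 1 higher, with medians of 0.67 in Cd8-low and 1.90 in Cd8-high libraries. Of 46 replication genes 21 were called lower, 4 higher and 21 did not pass, with medians of 1.53 in Cd8-low and 1.60 in Cd8-high libraries. Bub1, a kinase of the spindle checkpoint, averaged 2.98 CPM in aGC M and 1.97 CPM in PBS F, and did not pass, against 5.89 CPM in aGC F and 0 in PBS M (edgeR adjusted p of the difference = 1.48e-05). Cdca5, a factor of sister chromatid cohesion, had log2 changes of 1.15 and 9.34, and Ska3, of the kinetochore, of 0.48 and 7.09. The PBS M libraries averaged 0.0154 CPM of Cdca5 and 0.0303 CPM of Ska3, so the Cd8-high values rest on a group at or near 0. Dnph1, Slc2a6, Ggt1 and Gbp2b were also among the 8 largest negative differences. Slc2a6 and Gbp2b differed by -6.01 and -8.20 on the log2 scale, with PBS M means of 0.0184 CPM and 0.0795 CPM. Dnph1 was at 0 in PBS M and Ggt1 at 0 in aGC M, which leaves their fitted differences without a bound.

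Penk was among the higher responses, at means of 44.9 CPM in aGC M and 0 in PBS F, against 0.934 CPM in aGC F and 8.59 CPM in PBS M. Ccl1 rose in both, by 9.82 and 4.95 on the log2 scale, with a difference of 4.87 ± 0.27 (edgeR adjusted p = 8.24e-12). Nr4a2 had log2 changes of 6.33 and 0.92, Rab34 of 7.0 and 2.37, and Plaur, the urokinase receptor, of 2.32 and -1.75. C1qb, a complement gene of macrophages, had 0.83 and -3.22. For Ifng and Il4 the difference did not pass the threshold, at -0.08 ± 0.12 and -0.13 ± 0.12 (edgeR adjusted p = 0.632 and 0.41).

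The KO FT libraries of the same labels, aGC M against PBS F, were also Cd8-low, at Cd8a means of 7.6 CPM in aGC M and 5.17 CPM in PBS F, and Trav11 shares of 82.4% in aGC M and 84.7% in PBS F. They share no library with the WT FT ones and have the same sexes on the same sides. The test called 7739 genes there (50%), with 1485 rises (9.6%) and 860 falls (5.56%) of at least 2-fold. Between replicates, chi-square over its degrees of freedom was 12.2 to 16.5 in aGC M and 4.65 to 10.2 in PBS F of KO FT. In the Cd8-low WT FT libraries it was 4.13 to 7.42, and the part of this spread in the counts of calls was not tested. Over the same 8257 genes the log2 changes had a Pearson r of 0.678 and a Spearman rho of 0.627 with those of WT FT, again as a description across genes. Of the WT FT rises of at least 2-fold 773 were shared (36.5%, and 52.1% of the KO FT rises), and of the falls 375 (17.5%, and 43.6% of the KO FT falls). The difference between the responses, WT FT minus KO FT, was called in 6727 genes (43.5%), 3224 higher (20.8%) and 3503 lower (22.6%).

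The lists differed in how often the WT FT response was the higher one. Of 45 oxidative phosphorylation genes 42 were called higher and 0 lower, with medians of 0.72 in WT FT and 0.01 in KO FT. The counts were 47 higher and 0 lower of 48 for ribosomal proteins, with medians of 1.23 and 0.37, and 29 higher and 0 lower of 33 for proteasome and chaperonin, with medians of 1.04 and 0.44. They were 27 higher and 1 lower of 46 for replication and 24 higher and 5 lower of 36 for the MYC network. Fewer members differed elsewhere, with 2 higher and 1 lower of 26 for mitosis, 8 higher and 2 lower of 22 for glycolysis and lactate export, and 4 higher and 7 lower of 25 for sterol genes. Ifng changed by 2.86 in WT FT and 1.44 in KO FT on the log2 scale, a difference of 1.43 ± 0.12 (edgeR adjusted p = 6.28e-09). Il4 had 1.70 and 1.24, a difference of 0.46 ± 0.12 (edgeR adjusted p = 0.00305). Zbtb16 had -0.58 in WT FT and 0.26 in KO FT (difference -0.84, edgeR adjusted p = 5.07e-06).

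Single genes also differed. Ccl1 rose more in WT FT, by 3.24 on the log2 scale. So did Kcnh4 (edgeR adjusted p of the difference = 2.42e-06) and Rpp25 (0.00231), with the PBS F group of WT FT at or near 0. Penk, at KO FT means of 0.0533 CPM in aGC M and 0.227 CPM in PBS F, rose in WT FT. Stil, a centriole gene, had log2 changes of 4.90 in WT FT and 0.99 in KO FT, and Ccdc40, a ciliary gene, of 3.34 and 0.44. Lif, a cytokine of the interleukin 6 family, rose in both, by 3.04 and 7.21, as did Ak4, a mitochondrial adenylate kinase, by 3.61 and 7.74, and for both the rise was smaller in WT FT (edgeR adjusted p = 1.81e-07 and 0.00368). Ak4 had 4.26 in WT FT without PBS F replicate 1. Dok4, at least 90.3-fold lower in WT FT, had a log2 change of -1.28 in KO FT. Tmem231, Zfp595 and Zfp40 had log2 changes of -4.51, -3.44 and -3.35 in WT FT, against -0.51, 0.18 and 0.39 in KO FT, and Zfp40 had -4.28 in WT FT without aGC M replicate 1. With 1 profile per group in edgeR, 0 genes passed for the difference between the Cd8-low and Cd8-high responses (396 at an unadjusted p under 0.05). For that between WT FT and KO FT 0 passed too (600 at an unadjusted p under 0.05). In that fit the first reduces to the sex term and the second to the treatment by FT term, each over all 8 groups. It therefore does not test the differences between the named groups. DESeq2 on the libraries, which did, called 6387 and 6692.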

How the data were processed

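The expected counts per gene, whole numbers as deposited, were made by the authors with kallisto on GRCm38 (mm10), per the submitters' processing notes; its version, the annotation and the summing to genes were not given in the sources used here. RNA was purified with a kit for single cells and made into Nextera XT libraries, which keep no strand, per the labels' protocols. All 55335 genes were read, of which 55154 matched GENCODE M21 by identifier and 181 did not.

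Genes on X and Y were left out, and edgeR's filterByExpr (minimum count 10, minimum total 15) left 15469. edgeR 4.0.16 in R 4.3.3 (limma 3.58.1) fitted 8 group means to 24 libraries with TMM scaling. Its quasi-likelihood test was used for each contrast, two-sided, with Benjamini-Hochberg adjustment over all 15469 genes. SE is the log2 change over the square root of its F statistic. CPM are TMM-scaled, means are ± SD of 3 libraries, and ratios against 1 to 3 counts have exact 95% intervals for counting error only. A fold against a group at 0 was computed with 3 counts over that group, from summed counts and not from mean CPM. The script was tested on simulated data in which 200 genes were changed.

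The groups compared were aGC M with PBS F of WT FT, aGC F with PBS M of WT FT, and aGC M with PBS F of KO FT, and the differences between these responses. The KO FT libraries of equal number deviated together (correlations 0.319, 0.172 and 0.430; the pairing comes from the data, not the labels). Alternatives covered scaling, filter, libraries in the fit, chromosomes X and Y, DESeq2 1.42.0, a replicate block, 1 profile per group, a threshold of 0.01 and leaving out each library. The 1-profile fit modelled sex, treatment, FT and treatment by FT, with 3 residual degrees of freedom. It left out treatment by sex, which separates the Cd8-low from the Cd8-high groups. The text names the 14 largest rises and the 14 largest falls among called genes that reach 5 CPM in a group, up to 5 called and 2 uncalled genes per list, 8 each way per difference, and a fixed set of cytokine, lineage and cycle genes; some of these genes are not reported here. The members, the 38 lists and the tests were chosen with earlier results of these data known. Python 3.11.15 with pandas 2.3.3, numpy 2.4.6 and matplotlib 3.10.9 handled tables and figures.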

Additional observations from a re-analysis of the deposited data

Results flagged for a closer look

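Tested differences between 2 aGC responses were picked out where both responses had passed the test at no less than 2-fold in opposite directions, and the difference itself had passed. Between the Cd8-low and Cd8-high WT FT libraries this held for 267 of all 15469 genes, and for 9 of the 281 genes that the naming rule selects, which are given here. The difference was 15.81 on the log2 scale for Penk, a fitted value against 0 counts in PBS F that is no bound, 5.05 for Krt8, 4.91 for Rasgef1b, 4.08 for Plaur, 4.02 for Zfp865, 3.57 for Klrg1 and 3.16 for Cd244a. It was -8.20 for Gbp2b and -4.71 for Kifc1. Sex is reversed between these responses and cannot be told apart from the Cd8 level.

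Between the WT FT and KO FT libraries of the same labels it held for 124 of all genes, and for 6 of those the naming rule selects. The difference was 10.39 on the log2 scale for Slc6a19, 4.29 for Zfp286 and 3.34 for Zfp865, and -9.32 for Gpr15, -6.53 for Ndnf and -3.99 for Ctse. Slc6a19 was at 0 in the PBS F libraries of WT FT and the aGC M libraries of KO FT, and Gpr15 in the aGC M libraries of WT FT and the PBS F libraries of KO FT, so their fitted values are no bounds. Ndnf was at 7.15, 0.456 and 1.08 CPM in the PBS F libraries, so 1 library held most of its counts. Ctse, the peptidase cathepsin E, was at 10.04, 13.3 and 10.5 CPM in aGC M and 23.3, 23.1 and 24.2 CPM in PBS F of WT FT, against means of 259.7 CPM and 33.9 CPM in KO FT.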

How the results depend on the processing

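The Cd8-low response kept its counts within 1.5 times under other scaling, no filter, other sets of libraries in the fit, chromosomes X and Y kept, DESeq2 and the replicate block, and between 3931 and 4246 of its 4259 calls of at least 2-fold stayed past the threshold in the same direction under these settings and without single libraries, with at most 2 of opposite sign. With a filter at 5 CPM it had 1255 rises and 1088 falls of at least 2-fold, the Cd8-high response 990 and 832, and the KO FT response 715 and 304; fewer genes were tested. With 1 profile per group the Cd8-low response had 605 higher and 135 lower genes (563 and 118 at least 2-fold). The Cd8-high response had 532 and 113 (498 and 110) and the KO FT response 105 and 3 (104 and 3). Both differences had 0 and 0, as the sex term and the treatment by FT term of that fit. Its residual coefficient of variation was 0.422, around a model without treatment by sex, against 0.107 between libraries. In it 67 of 76 list counts moved. Cd4 was at 0.21 on the log2 scale, against -0.22 over the libraries, and Cd8b1 at -0.68, against 0.33. These values draw on all 8 groups and not on the compared libraries alone. At a threshold of 0.01 the Cd8-low response was called higher than the Cd8-high one in 1828 genes. Library totals without TMM moved the median of all genes to -0.187, and the medians of the activation, unfolded protein and NK lists changed sign.

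The replicate numbers did not pair the WT FT libraries (correlations of same-numbered deviations -0.083, 0.028 and -0.037, and 2 of 6 libraries correlated best with their own number). With the replicate block the Cd8-low response had 4374 higher and 4850 lower genes. Levels under 1 CPM are near what depth can resolve. Age, mice per library, and donor, dam or litter apart from the group were not analysed here.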
